A study of Mus musculus with 6 samples.

Results

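The unfolded protein response and the integrated stress response were followed in single-nucleus RNA sequencing of mouse hippocampus through a list of 36 genes. The list covers stress sensors, the translation factor eIF2 and its phosphatases, transcription factors, their metabolic targets, and the folding and degradation machinery of the endoplasmic reticulum (ER). It was chosen by name, and 35 of the 36 were found among the 33457 features of the matrices. The antisense gene Vldlr-AS could not be matched by name and has no value here. Over all nuclei, 33 of the 35 members had at least 300 UMIs (unique molecular identifiers, each standing for 1 captured RNA molecule). The exceptions were Trib3 with 153 UMIs and Chac1 with 237.

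The 6 libraries came from mice of strain B6 at 9 months of age, with 1 library in each of 6 groups. FE3 and FE4 mice carried floxed human APOE3 or APOE4 and received no treatment named in the labels. TAFE3 and TAFE4 mice carried the P301S tau transgene, floxed APOE3 or APOE4 and a Cre recombinase labelled Aldh1la1CreERT, and were given oil or tamoxifen, which activates that Cre. All 6 groups therefore shared the floxed human APOE. TAFE oil libraries differ from FE libraries in tau, Cre and oil together, so these cannot be told apart, and tamoxifen comes together with the deletion of APOE. The promoter of the tau transgene and the number of animals in each library are not given in the sources used here.

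With 1 library a group there are no replicates, so no test was made and the ranges printed after values are 95% counting intervals of the UMIs alone. Levels are CPM, the UMIs of a gene scaled to 1000000 UMIs of all genes, summed over the nuclei of a class in a library. Where 6 levels follow each other, they stand in the order FE3, FE4, TAFE3 with oil, TAFE3 with tamoxifen, TAFE4 with oil, TAFE4 with tamoxifen. Less of a transcript in each nucleus and fewer nuclei of a subtype within a class cannot be told apart. After filters, 68707 nuclei were kept, between 9796 and 14235 a library, from totals of 39050503 to 49083723 UMIs. The median share of mitochondrial UMIs stood between 2.01% and 3.23% in 4 libraries but was 0.62% in FE4 and 0.69% in TAFE4_tam, which stand apart from the rest. Any pair of libraries shared between 65 and 83 cell barcodes. Human APOE in astrocytes, the gene that tamoxifen should delete there, was 12406 CPM in FE3 and 12535 CPM in FE4. It was 16313 CPM in TAFE3_oil and 19378 CPM in TAFE4_oil, against 5250 CPM in TAFE3_tam and 5253 CPM in TAFE4_tam, so the libraries matched their labels in this class.

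When unfolded proteins build up in the ER, the membrane sensors PERK (Eif2ak3), IRE1 (Ern1) and ATF6 start the unfolded protein response: ATF6 and the spliced form of XBP1 switch on chaperones and ER degradation genes. PERK also phosphorylates the initiation factor eIF2 on its alpha subunit (Eif2s1), as GCN2 (Eif2ak4) does when amino acids run short. That step, the core of the integrated stress response, lowers general translation while favouring translation of ATF4. ATF4 in turn drives CHOP (Ddit3), ATF3, amino acid transporters and serine and asparagine synthesis. The phosphatase subunits GADD34 (Ppp1r15a) and CReP (Ppp1r15b) reverse the phosphorylation. Much of this control acts on protein or splicing, which these UMIs do not measure.

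Promoter stretches of members from both branches are shown because the binding motifs of the 2 branches can be read in them. RefSeq promoters of build GRCm38.p6, from 250 bases before to 50 after each start, were matched for 31 members. The ER stress response element, CCAAT and CCACG separated by any 9 bases on either strand, occurred in 39 of 32851 promoters, or 0.119%. Among the members 7 held it: the chaperones Hspa5, Calr, Hsp90b1 and Canx, the disulfide isomerase Pdia6, Creld2 and the ubiquitin ligase Syvn1. In the sequences that follow, printed 5′ to 3′ along the gene's strand, the capitals mark the 2 ends of the element, which reads as CGTGG and ATTGG where it lies on the opposite strand.
Hspa5, chr2:34771995-34772073, plus strand: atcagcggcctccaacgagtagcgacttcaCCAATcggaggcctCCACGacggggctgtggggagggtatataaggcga
Calr, chr8:84847045-84847123, minus strand: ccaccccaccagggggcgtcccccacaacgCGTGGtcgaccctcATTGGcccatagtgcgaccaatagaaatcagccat
Hsp90b1, first site, chr10:86705608-86705686, minus strand: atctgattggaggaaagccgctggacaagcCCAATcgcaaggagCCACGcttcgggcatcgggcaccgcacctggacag
Hsp90b1, second site, chr10:86705503-86705581, minus strand: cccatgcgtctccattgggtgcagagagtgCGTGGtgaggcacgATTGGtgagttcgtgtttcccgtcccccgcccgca
Canx, chr11:50325770-50325848, minus strand: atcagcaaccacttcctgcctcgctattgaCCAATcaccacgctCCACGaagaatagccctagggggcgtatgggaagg
Creld2, chr15:88819490-88819568, plus strand: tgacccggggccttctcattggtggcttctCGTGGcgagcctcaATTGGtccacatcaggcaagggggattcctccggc

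The second motif, TGATGNAA on either strand, is the kind of site at which ATF4 binds with C/EBP proteins. It occurred in 1304 of 32851 promoters, or 3.97%, and in 5 members, Atf3, Chac1, Trib3, Asns and Herpud1. In Trib3 it lay after the start. The capitals below mark the motif, or its reverse complement TTNCATCA, with the free base in lower case.
Atf3, chr1:191183406-191183473, minus strand: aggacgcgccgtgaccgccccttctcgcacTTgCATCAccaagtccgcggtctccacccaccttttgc
Chac1, chr2:119351019-119351086, plus strand: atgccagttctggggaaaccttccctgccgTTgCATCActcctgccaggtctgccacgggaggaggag
Asns, chr6:7693210-7693262, minus strand: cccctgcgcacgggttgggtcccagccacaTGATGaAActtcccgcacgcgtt
Herpud1, chr8:94386287-94386354, plus strand: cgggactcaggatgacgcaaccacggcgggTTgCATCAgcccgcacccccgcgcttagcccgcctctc
No member held both motifs in this window. A match is a description of the letters only.

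The level of the members was first compared between cell classes. Classes were rebuilt from clusters and marker genes, with the members kept out of the genes used for clustering, and each class name means nuclei like that type by its markers. T cells and unnamed clusters were left out when the classes were ranked. With the 6 libraries pooled, endothelial nuclei were highest for 10 of the 35 members, microglia for 4, and choroid plexus, fibroblasts and oligodendrocyte precursors for 3 each. CA2 or CA3 neurons were the lowest class for all 10 ER folding members. This was not particular to ER folding, since they were also lowest for Atf4, Xbp1, Eif2s1, Ppp1r15a, Ppp1r15b, Herpud1, Phgdh, Psat1 and Slc7a5. Other members had another lowest class, such as pericytes for Atf6 and endothelial nuclei for Sel1l. The shares of all features highest or lowest in a class were not counted. For 26 of the 35 members the intervals of the first and second class overlapped, so their first place is not separated from the second. First places by library were read only in classes with at least 50 nuclei in every library. That leaves out endothelial nuclei, pericytes, choroid plexus, Cajal-Retzius cells and newly formed oligodendrocytes.

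The amino acid transporter pair was highest in endothelial nuclei. Slc7a5, the light chain that carries large neutral amino acids, was at 236 CPM (213 to 260.0) in endothelial nuclei and 22.8 CPM (17.9 to 28.6) in the next class, fibroblasts, a ratio of 10.4. Its endothelial level was 427 and 267 CPM in the FE libraries (APOE3, then APOE4), 117 and 179 with oil and tamoxifen for TAFE3, and 231 and 283 likewise for TAFE4. FE3, with only 38 endothelial nuclei, was the highest library and TAFE3_oil the lowest, and the FE and TAFE ranges overlapped. Slc3a2, its heavy chain partner, stood at 481 CPM (449 to 516) in endothelial nuclei and 343 CPM (323 to 364) in fibroblasts, a ratio of 1.40.

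Serine synthesis enzymes were glial. Phgdh, which starts the pathway, was at 186 CPM (175 to 198) in astrocytes, 101 CPM (94.0 to 109) in oligodendrocytes and 8.20 CPM in CA2 or CA3 neurons, the lowest class. Psat1, the next enzyme, had the opposite order of the same 2 classes, with 78.2 CPM (71.7 to 85.1) in oligodendrocytes and 44.6 CPM (39.2 to 50.6) in astrocytes. Asns, which makes asparagine, was flat by comparison: 29.1 CPM (27.6 to 30.6) in subicular or cortical neurons and 28.4 CPM (24.1 to 33.3) in microglia, whose intervals overlapped.

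Among the ER folding members, Sdf2l1, a partner of the BiP chaperone system, was at 54.8 CPM (48.7 to 61.4) in microglia against 37.6 CPM (30.7 to 45.6) in oligodendrocyte precursors, and microglia were its highest class in 6 of 6 libraries. Hspa5, the BiP chaperone itself, was at 389 CPM in microglia (372 to 406) and had overlapping intervals there and in pericytes, where it was 389.6 CPM. Canx, the membrane lectin chaperone calnexin, was at 296 CPM (278 to 315) in fibroblasts against 234 CPM in oligodendrocyte precursors. Calr, its soluble relative calreticulin, was at 544 CPM in oligodendrocyte precursors and 543 CPM in microglia, which did not separate. The lowest class for all 4 of these genes was CA2 or CA3 neurons, with 9.69 CPM of Sdf2l1, 147 CPM of Hspa5, 79.8 CPM of Canx and 224 CPM of Calr.

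Sensors and degradation genes followed other orders. Atf6, the ER membrane transcription factor, was at 61.9 CPM (58.7 to 65.2) in granule neurons and 52.6 CPM (46.6 to 59.1) in microglia. Eif2ak4, the GCN2 kinase, was highest in inhibitory neurons at 36.9 CPM (34.5 to 39.4), its first class in 5 of 6 libraries. Sel1l, the scaffold of the ER degradation ligase, was at 164 CPM (158 to 170) in CA1 neurons, and Edem1, which passes misfolded glycoproteins to degradation, at 32.0 CPM (27.4 to 37.1) in microglia. Xbp1 was at 156 CPM (137 to 176) in endothelial nuclei against 121 CPM (112 to 131) in microglia. Atf3, a stress-induced factor that is nearly silent in resting tissue, was at 18.03 CPM (14.6 to 21.99) in microglia and 14.8 CPM (9.58 to 21.9) in endothelial nuclei. That microglial level rests on the TAFE libraries, with 52 of the 97 UMIs in TAFE4_tam and 1 in the FE libraries. By library, in a ranking without endothelial nuclei, fibroblasts were the highest class in 3 of 6.

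**Figure D1:**
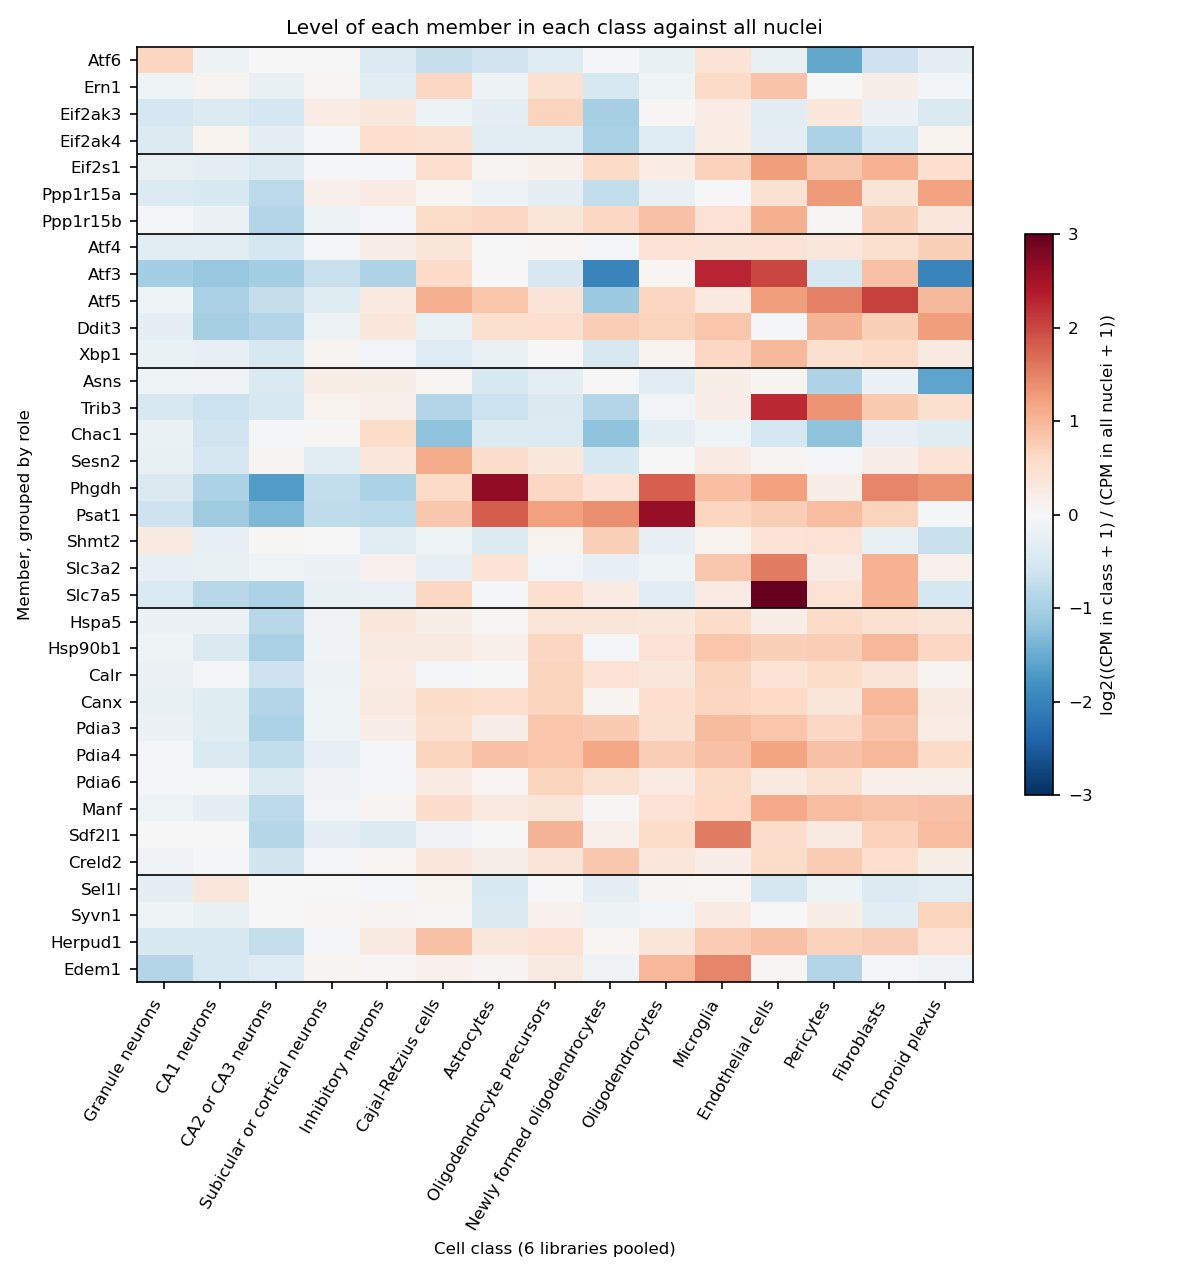
Level of each of the 35 members (rows, grouped by role) in each of 15 cell classes (columns), as log2 of the class CPM plus 1 over the CPM of all nuclei plus 1, with the 6 libraries pooled. Red is above and blue below the level over all nuclei: Slc7a5 stands out in endothelial nuclei, Phgdh and Psat1 in astrocytes and oligodendrocytes, and the CA2 or CA3 column is blue for the ER folding members.

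A cluster of 161 of the 68707 nuclei, or 0.234%, was led by the heat shock genes Hspa1a and Hspa1b with Cdkn1a, Gadd45b, Cxcl2 and Jun. It stays unnamed, because markers of most classes were detected in it at low levels. Granule neuron markers summed to 890 CPM, above the 560 CPM of all nuclei but below the 2252 CPM of the highest cluster. Ependymal markers, at 33.6 CPM against 8.96, were also above their level over all nuclei. Oligodendrocyte markers summed to 880 CPM, against 1196 over all nuclei and 14736 in the highest cluster. Its nuclei had a median of 1910 UMIs and a median mitochondrial share of 0.99%. FE3 gave 7 of these nuclei and FE4 12, TAFE3 gave 30 with oil and 20 with tamoxifen, and TAFE4 gave 47 with oil and 45 with tamoxifen. At a coarser clustering it was not a cluster of its own: 117 of its nuclei fell in the oligodendrocyte cluster and 44 in the granule neuron cluster. What follows describes a cluster built from the same nuclei and is no test.

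Within these nuclei the ratios differed widely between members. Atf3 was at 406 CPM (345 to 475) in the cluster and 2.06 CPM in the other nuclei, a ratio of 197 (162 to 238), and 157 of its 534 UMIs came from these 161 nuclei. Ppp1r15a, the inducible eIF2 phosphatase subunit, stood 25.6 times higher (20.4 to 31.8). Sesn2, a stress-induced inhibitor of mTORC1, was 15.8 times higher (9.95 to 23.9), Ddit3 14.3 times (11.6 to 17.4) and Atf4 11.1 times (9.63 to 12.7). Chac1, a glutathione-degrading enzyme, was 14.4 times higher on only 7 UMIs, and Trib3, a pseudokinase, 12.7 times higher on 4. Not all integrated stress targets were higher: Phgdh was at a ratio of 0.452 on 5 UMIs and Psat1 at 0.864 on 4.

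Most ER chaperones stood nearer to a ratio of 1. Hspa5 was 2.17 times higher (1.89 to 2.47) and Herpud1, a component of the degradation complex, 2.47 times (1.87 to 3.19). Hsp90b1 was at a ratio of 1.12, Pdia3 at 1.10, Pdia6 at 1.14 and Canx at 0.962, all with intervals across 1, while Calr was at 0.808 (0.662 to 0.977). By role the median ratio was 11.1 for the 5 transcription factors, 3.48 for eIF2 and its phosphatases, 1.97 for the 9 integrated stress targets, 1.55 for the 4 sensors, 1.13 for the 10 ER folding members and 1.04 for the 4 degradation members. At least 1.5-fold higher were 5 of 5 transcription factors and 2 of 10 ER folding members. Over the 35 members 21 passed that size, or 60%, against 37.2% of 14318 features with at least 300 UMIs. The 21 include Trib3 and Chac1, which have under 300 UMIs and so would not enter that background. The cluster was the highest of all 30 for 8 members, Atf4, Atf3, Ddit3, Chac1, Sesn2, Eif2ak3, Ppp1r15a and Ppp1r15b. How many of all features were highest there was not counted.

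**Figure D2:**
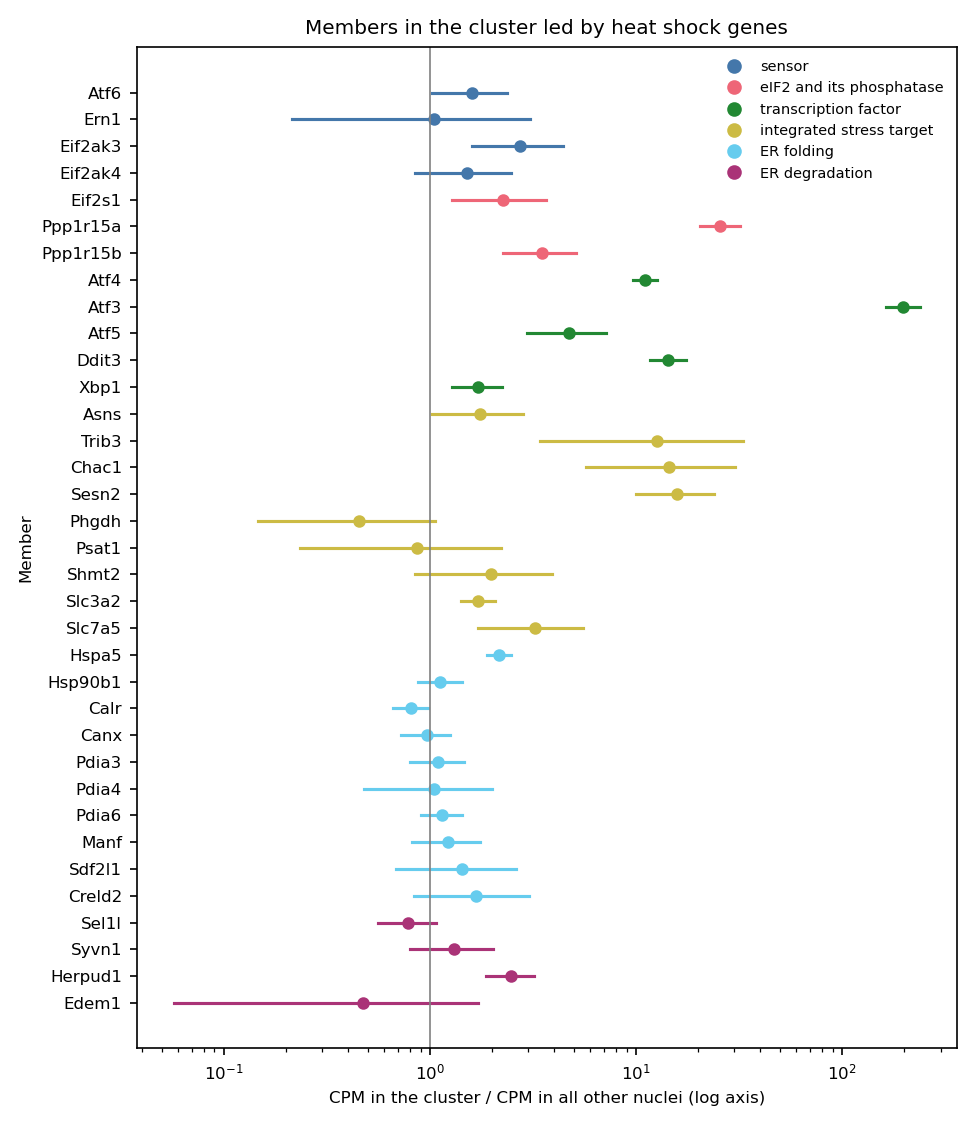
Ratio of CPM in the cluster led by heat shock genes to CPM in all other nuclei for the 35 members (log axis), with points coloured by role and bars for 95% counting intervals. Atf3 lies far to the right at 197, Ppp1r15a, Sesn2, Chac1, Ddit3, Trib3 and Atf4 between 11.1 and 25.6, and 8 of the 10 ER folding members lie under 1.5, with Hspa5 at 2.17 and Creld2 at 1.68 above.

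The comparison of TAFE oil with FE libraries asks how the list differs in brains with mutant tau, within each APOE allele. It gives a pair of ratios for each class, TAFE3_oil against FE3 and TAFE4_oil against FE4, on separate libraries. Features entered where the pair together held at least 20 UMIs, and a size of 1.5-fold was counted. FE4 was also lowest in ribosomal protein transcripts in all 7 classes compared, so the median ratio over all features is given beside each member median. Other classes were not read member by member. Among them, subicular or cortical neurons had member medians of -0.18 and 0.20 in the APOE3 and APOE4 pairs, beside -0.09 and 0.15 over all features. Oligodendrocyte precursors had -0.10 and 0.40, beside -0.04 and 0.14. In addition, members were counted whose CPM was higher in all 4 TAFE libraries than in both FE libraries. That count was chosen after the values were seen, and it mixes oil and tamoxifen.

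Astrocytes had member medians above those of all features in both pairs. The median log2 ratio of the members was 0.26 over 27 members in the APOE3 pair and 0.56 over 28 in the APOE4 pair, beside 0.02 and 0.17 over all features. At least 1.5-fold higher were 4 of 27 members in the APOE3 pair, or 14.8%, against 15.7% of all features. In the APOE4 pair it was 13 of 28, or 46.4%, against 25.8%. Lower by that size were 2 members in the APOE3 pair (background 11.7%) and 0 in the APOE4 pair (background 11%). In 13 of 28 members with at least 50 UMIs all 4 TAFE libraries were above both FE libraries, 46.4% against 18.7% of features, and 0 were below in all 4 (8.86% of features). With TMM scaling, a normalisation that assumes most genes unchanged, that count was 7 against 12.5% of features.

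The ER folding members made up most of that group: all but Pdia6 of the 10 were higher in every TAFE library. Their sum in astrocytes was 1395 and 1190 CPM in FE3 and FE4, against 1629 to 1722 in the TAFE libraries. This order was not particular to astrocytes. In oligodendrocyte precursors the sum was 1938 and 1634, against 2062 to 2239. It was 1699 and 1601, against 1723 to 1828, in oligodendrocytes, and 1811 and 1689, against 1859 to 2013, in endothelial nuclei. Canx in astrocytes was at 194 and 165 CPM in the FE libraries (APOE3, then APOE4), 269 and 237 with oil and tamoxifen for TAFE3, and 242 and 253 likewise for TAFE4. The 4 TAFE values lay above both FE values, and the log2 ratio was 0.47 (0.17 to 0.77) in the APOE3 pair and 0.55 (0.26 to 0.83) in the APOE4 pair. Pdia3, a disulfide isomerase that works with Canx and Calr, was at 110.2, 97.1, 150.01, 155, 144 and 162 CPM in the same order of libraries. Its FE and TAFE values did not overlap, with log2 ratios of 0.44 (0.05 to 0.84) and 0.57 (0.20 to 0.94).

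Manf, a secreted ER stress protein with neurotrophic activity, was at 69.8 and 52.1 CPM in the FE libraries (APOE3, then APOE4), 100.4 and 93.9 with oil and tamoxifen for TAFE3, and 92.6 and 87.8 likewise for TAFE4. All TAFE values were above both FE values, with log2 ratios of 0.52 (0.03 to 1.03) and 0.83 (0.34 to 1.31). Sdf2l1 was at 9.82, 13.7, 26.1, 14.4, 36.1 and 23.9 CPM in that order, on 9 to 27 UMIs a library, with log2 ratios of 1.41 (0.21 to 2.73) and 1.40 (0.53 to 2.26). Its TAFE3_tam value lay close to FE4. Hspa5 was at 266, 232, 287, 293, 294 and 317 CPM, a smaller step, with log2 ratios of 0.11 (-0.16 to 0.38) and 0.34 (0.09 to 0.59). The plot of astrocyte members by library shows TAFE above FE for Hsp90b1, Calr, Pdia4 and Creld2 too, whose ratios had intervals across 0 in the APOE3 pair. For Hsp90b1 and Calr the TAFE4_tam level, 172 and 339 CPM, was close to that of FE3, 170.2 and 336 CPM.

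Among metabolic targets in astrocytes, Slc3a2 and Psat1 were higher in all 4 TAFE libraries and Phgdh in 3. Slc3a2 was at 188 and 193 CPM in the FE libraries (APOE3, then APOE4), 249 and 247 with oil and tamoxifen for TAFE3, and 256 and 269 likewise for TAFE4, with log2 ratios of 0.41 (0.10 to 0.71) and 0.41 (0.13 to 0.67). Phgdh was at 139.7 and 155 CPM in the FE libraries (APOE3, then APOE4), 223 and 261 with oil and tamoxifen for TAFE3, and 249.6 and 152 likewise for TAFE4. The TAFE4_tam value lay among the FE values, while the oil pairs gave log2 ratios of 0.68 (0.34 to 1.02) and 0.69 (0.40 to 0.97). Psat1 was at 28.4, 37.9, 47.0, 62.1, 65.9 and 45.9 CPM in that order of libraries, without overlap of the FE and TAFE values. In all, 6 of 27 members had both intervals above 0 (Canx, Pdia3, Manf, Sdf2l1, Phgdh and Slc3a2) and 0 had both below. Such counts of both intervals were not made over all features, here or in the other classes, so they have no background. The degradation members Sel1l and Syvn1 did not move that way: Sel1l had log2 ratios of -0.48 and 0.06, and Syvn1 of -0.69 and -0.37.

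Other measures moved in astrocytes too. Ribosomal protein transcripts summed to 16674 CPM (FE3) and 11517 CPM (FE4), while the oil libraries had 17772 (TAFE3) and 21842 (TAFE4). For mitochondrial transcripts these sums were 31038 and 16851 CPM without tau, then 21906 and 27805 with tau and oil. Neuronal transcripts were 5999.7 and 8338 CPM in FE3 and FE4, and 5631 and 5561 in the oil libraries. Among astrocytes with 2% to 5% mitochondrial UMIs, the 10 ER folding members summed to 1451 CPM (1365 to 1542) in FE3 and 1275 (1191 to 1363) in FE4. In the same range of mitochondrial share the sum was 1920 CPM with oil and 1855 with tamoxifen for TAFE3, and 1838 and 1867 for TAFE4, with a lowest bound of 1679, so the FE and TAFE intervals did not overlap. Among astrocytes with 1% to 2% they did: the sum was 1423 CPM (1233 to 1634) in FE3 and 1282 (1186 to 1384) in FE4, and its TAFE values ran from 1505 (1351 to 1671) with oil in TAFE3 to 1765 (1516 to 2042) with tamoxifen in TAFE4. The part of ribosomal transcripts in the result was not tested. Astrocyte nuclei numbered 530 (FE3), 929 (FE4) and 249 to 344 for each TAFE library.

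**Figure D3:**
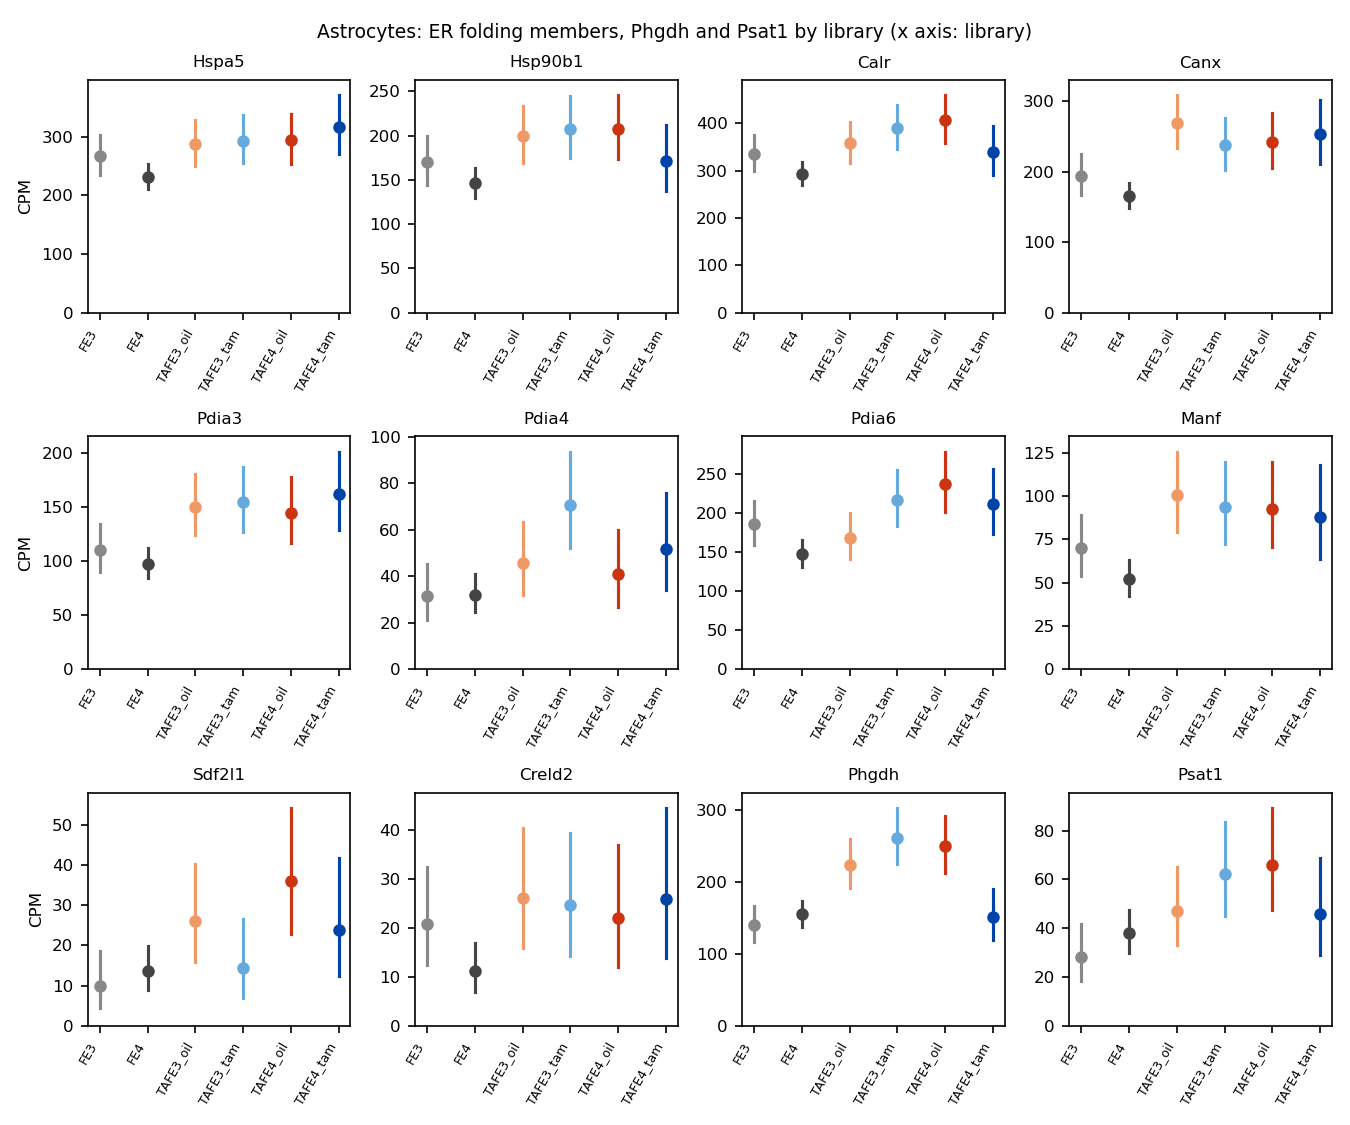
CPM of the 10 ER folding members, Phgdh and Psat1 in astrocyte nuclei of each library; points are the summed level and bars 95% counting intervals. In 9 of the 10 ER folding panels the 4 TAFE points lie above both FE points, and in the Phgdh panel TAFE4_tam lies with the FE libraries.

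Granule neurons, the principal cells of the dentate gyrus, had member medians of -0.13 and 0.23 in the APOE3 and APOE4 pairs, beside -0.05 and 0.15 over all features. Higher by 1.5-fold were 1 of 32 members in the APOE3 pair (background 6.92%) and 9 of 32, or 28.1%, in the APOE4 pair (background 20.5%). Lower were 2 (background 8.62%) and 1 (background 6.27%). Only Asns and Edem1, 2 of 32, were above in all 4 TAFE libraries, against 15.2% of features, and 0 were below, against 6.9%. Asns in granule neurons was at 22.01 and 15.8 CPM in the FE libraries (APOE3, then APOE4), 28.3 and 26.5 with oil and tamoxifen for TAFE3, and 40.2 and 24.9 likewise for TAFE4. FE4 was the lowest and TAFE4_oil the highest, with log2 ratios of 0.36 (-0.14 to 0.85) and 1.35 (0.90 to 1.79). Ddit3 was at 16.2, 11.4, 16.7, 14.4, 28.4 and 20.4 CPM in that order, so only the APOE4 pair separated, at 1.32 (0.78 to 1.84) against 0.04 (-0.61 to 0.66).

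The chaperone Hspa5 went the other way in these neurons. It was at 266 and 237 CPM in the FE libraries (APOE3, then APOE4), 195 and 244 with oil and tamoxifen for TAFE3, and 194 and 199.6 likewise for TAFE4 in granule neurons. Both oil libraries lay below both FE libraries, with log2 ratios of -0.45 (-0.62 to -0.28) and -0.28 (-0.46 to -0.11), but TAFE3_tam lay above FE4. In CA1 neurons Hspa5 was at 275, 237, 193, 244, 171 and 211 CPM in the same order, with log2 ratios of -0.51 (-0.69 to -0.33) and -0.48 (-0.70 to -0.26). It was the 1 member with both intervals below 0 in each of these classes. Since the all-feature median of the APOE4 pair was above 0 in both, Hspa5 stood further below the other features there than its ratio alone shows. Hspa5 also varied with mitochondrial share. In CA1 neurons with 0.5% to 1% mitochondrial UMIs it was 192 CPM (156 to 234) in FE3 and 194 (159 to 234) in TAFE3_oil. FE4 and TAFE4_oil had 265 (236 to 298) and 163 (120 to 217) there. With 2% to 5%, FE3 and TAFE3_oil had 316 (291 to 342) and 236 (186 to 295) in CA1, and 277 (259 to 297) and 193 (156 to 236) in granule neurons. The part of this share was not tested.

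CA1 pyramidal neurons had member medians of -0.14 over 32 members and 0.27 over 31, beside -0.06 and 0.15 over all features. The 1.5-fold size was passed upward by 0 in the APOE3 pair (background 6.44%) and 9 of 31, or 29%, in the APOE4 pair (background 23.1%), and lower were 1 (background 9.54%) and 1 (background 8.47%). Above in all 4 TAFE libraries were 2 of 31, Atf5 and Ddit3, against 14.2% of features, and below 0 against 9.05%. These shares lie under the background except for the count of higher members in the APOE4 pair.

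CA2 or CA3 neurons, the class in which the 10 ER folding members were lowest, had member medians of -0.04 and 0.48 over 32 members, beside -0.09 and 0.17 over all features. Higher by 1.5-fold were 3 of 32 in the APOE3 pair (background 6.43%) and 15 of 32, or 46.9%, in the APOE4 pair (background 22.9%), and lower were 3 (background 11.1%) and 0 (background 7.11%). Above in all 4 TAFE libraries were 4 of 32, Atf4, Atf6, Ppp1r15b and Slc3a2, or 12.5% against 12.3% of features. Below were 2, Sel1l and Creld2, against 7.91%. Atf4 in this class was at 31.5 and 26.9 CPM in the FE libraries (APOE3, then APOE4), 45.8 and 34.2 with oil and tamoxifen for TAFE3, and 48.4 and 45.7 likewise for TAFE4. Its log2 ratios were 0.54 (0.10 to 0.97) and 0.85 (0.37 to 1.31). Ppp1r15b was at 6.40, 7.66, 12.99, 13.6, 15.9 and 12.5 CPM in that order. The FE and TAFE values themselves, apart from their intervals, did not overlap, and the log2 ratios were 1.02 (0.10 to 1.93) and 1.05 (0.16 to 1.90).

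Ddit3 in CA2 or CA3 neurons was at 7.47 and 6.34 CPM in the FE libraries (APOE3, then APOE4), 13.6 and 7.42 with oil and tamoxifen for TAFE3, and 27.6 and 12.5 likewise for TAFE4. TAFE4_oil stood apart from the rest, with a log2 ratio of 2.12 (1.35 to 2.89) in the APOE4 pair and 0.87 (-0.01 to 1.72) in the APOE3 pair, and TAFE3_tam lay at the level of FE3. In this class ribosomal protein transcripts were 5416 CPM in FE4 and 9861 in TAFE4_oil, and mitochondrial ones 3304 and 12564 CPM, so both moved with the APOE4 pair. Their part in the APOE4 result was not tested.

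Inhibitory neurons had member medians of -0.02 over 32 members and 0.33 over 33, beside 0.01 and 0.25 over all features. The 1.5-fold size was passed upward by 3 of 32 (background 7.89%) and 12 of 33, or 36.4% (background 24.3%), and lower 1 (background 5.06%) and 0 (background 2.7%). Above in all 4 TAFE libraries were 6 of 33, or 18.2% against 21.7% of features (Asns, Eif2ak3, Eif2s1, Ppp1r15b, Herpud1 and Psat1), and below 1, Shmt2, against 6.61%. Asns was at 17.8 and 15.8 CPM in the FE libraries (APOE3, then APOE4), 32.7 and 23.9 with oil and tamoxifen for TAFE3, and 38.7 and 33.7 likewise for TAFE4. Its FE and TAFE values did not overlap, and the log2 ratios were 0.88 (0.39 to 1.39) and 1.29 (0.87 to 1.74). Eif2s1 was at 10.9, 13.7, 19.9, 21.1, 20.2 and 18.7 CPM in that order, also without overlap of these values. Its log2 ratios were 0.87 (0.24 to 1.53) and 0.56 (0.07 to 1.08). With at most 1% mitochondrial UMIs its APOE3 ratio turned to -0.24.

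Microglia, the resident macrophages of the brain, had member medians of 0.11 over 26 members and -0.07 over 28, beside 0.04 and 0.11 over all features. Higher by 1.5-fold were 7 of 26 (background 22.3%) and 5 of 28 (background 23.8%), and lower 1 (background 17.2%) and 2 (background 11.9%). Above in all 4 TAFE libraries were 4 of 31, Atf3, Sdf2l1, Phgdh and Slc3a2, against 19.3% of features, and below 3, Atf6, Syvn1 and Creld2, against 10.4%. The share of members higher by that size lay above the background in the APOE3 pair, 26.9%, and under it in the APOE4 pair, 17.9%. With doublets kept, the APOE4 median turned to 0.295. FE3 held only 171 microglial nuclei and FE4 539, against 576 to 1547 in the TAFE libraries. Neuronal transcripts in microglial nuclei summed to 25778 CPM in FE3 against 7931 to 12702 CPM in the other 5 libraries, and their part in these ratios was not tested.

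Atf3 in microglia had too few UMIs in the FE libraries for a ratio, with under 20 in each pair of oil and FE. It had 0 UMIs in FE3 microglia, which allows up to 11.7 CPM, and 1 UMI in FE4, at 2.04 CPM. In TAFE3 it had 17 UMIs with oil and 9 with tamoxifen, at 15.8 and 14.7 CPM, and in TAFE4 18 with oil and 52 with tamoxifen, at 13.4 and 33.7 CPM. All 4 TAFE values lay above both FE values, though the FE upper bounds reach 11.7 and 11.3 CPM. Over all nuclei, which mix classes in other shares, Atf3 was at 0.712 and 0.356 CPM in the FE libraries (APOE3, then APOE4), 4.42 and 1.99 with oil and tamoxifen for TAFE3, and 4.37 and 5.69 likewise for TAFE4. Without the cluster led by heat shock genes these were 0.713, 0.302, 3.19, 1.67, 3.12 and 3.49 CPM, and the order of TAFE over FE held.

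Oligodendrocytes, the myelin-forming cells, had member medians of -0.00 over 26 members and 0.22 over 31, beside 0.01 and 0.18 over all features. The 1.5-fold size was passed upward by 3 of 26 (background 12.6%) and 7 of 31, or 22.6% (background 23.2%), and lower 2 (background 8.97%) and 1 (background 6.85%). In contrast to these shares, 10 of 30 members were above in all 4 TAFE libraries, 33.3% against 14.3% of features, and 3, Atf4, Sel1l and Creld2, were below, against 7.7%. The 10 were Atf6, Xbp1, Eif2ak3, Ppp1r15a, Ppp1r15b, Hsp90b1, Canx, Pdia3, Sdf2l1 and Shmt2. Most steps were small: Ppp1r15b was at 32.5 CPM in FE3, 31.7 in FE4 and 38.6 to 40.8 in the TAFE libraries, with overlapping intervals. Xbp1 was at 63.4, 75.0, 103, 102, 85.5 and 82.5 CPM in the order FE3, FE4, TAFE3_oil, TAFE3_tam, TAFE4_oil and TAFE4_tam. Its TAFE3 values were the highest.

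Over all nuclei 16 of 35 members, or 45.7%, were above in all 4 TAFE libraries, against 32.5% of features, and 0 were below, against 9.55%. They were Atf4, Atf3, Atf5, Ddit3, Asns, Trib3, Xbp1, Eif2ak3, Eif2s1, Ppp1r15a, Ppp1r15b, Pdia3, Herpud1, Edem1, Manf and Slc3a2. By role the 16 were 5 of 5 transcription factors, 3 of 3 of eIF2 and its phosphatases, 1 of 4 sensors, 3 of 9 integrated stress targets, 2 of 10 ER folding members and 2 of 4 ER degradation members. Asns was at 21.5 CPM (19.8 to 23.3) and 15.8 CPM (14.5 to 17.1) in the FE libraries, 27.1 and 25.6 with oil and tamoxifen for TAFE3, and 35.6 and 25.9 likewise for TAFE4. Ddit3 was at 14.8, 11.9, 22.1, 17.2, 26.7 and 23.6 CPM and Atf4 at 42.1, 44.9, 50.3, 54.2, 59.1 and 59.7 CPM in that order. These sums carry the share of each class in a library, which differed: granule neurons made up 2308 of 9889 nuclei in FE3 and 597 of 11568 in TAFE4_oil.

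**Figure D4:**
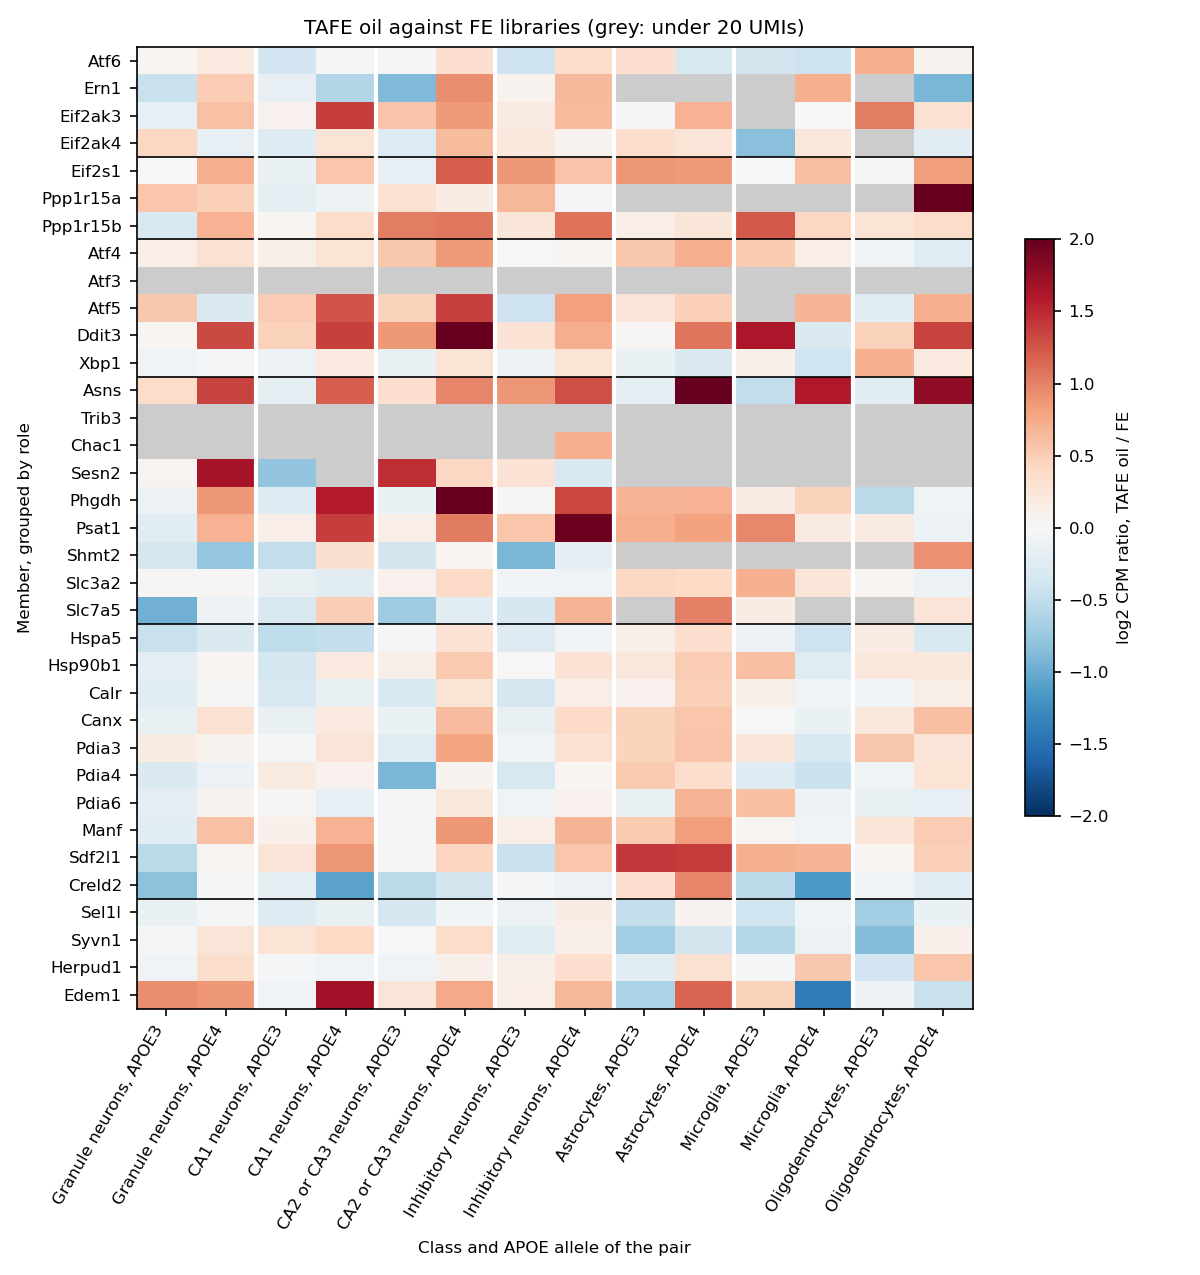
Log2 ratio of CPM in TAFE oil to FE libraries for each of the 35 members (rows, by role) in 7 classes, with an APOE3 and an APOE4 column for each class; grey cells have under 20 UMIs over the pair. The ER folding rows are red in both astrocyte columns except for Pdia6 in the APOE3 pair, the Hspa5 row is blue in granule and CA1 neurons, and the Ddit3 row is dark red in the APOE4 columns of granule and CA2 or CA3 neurons.

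**Figure D5:**
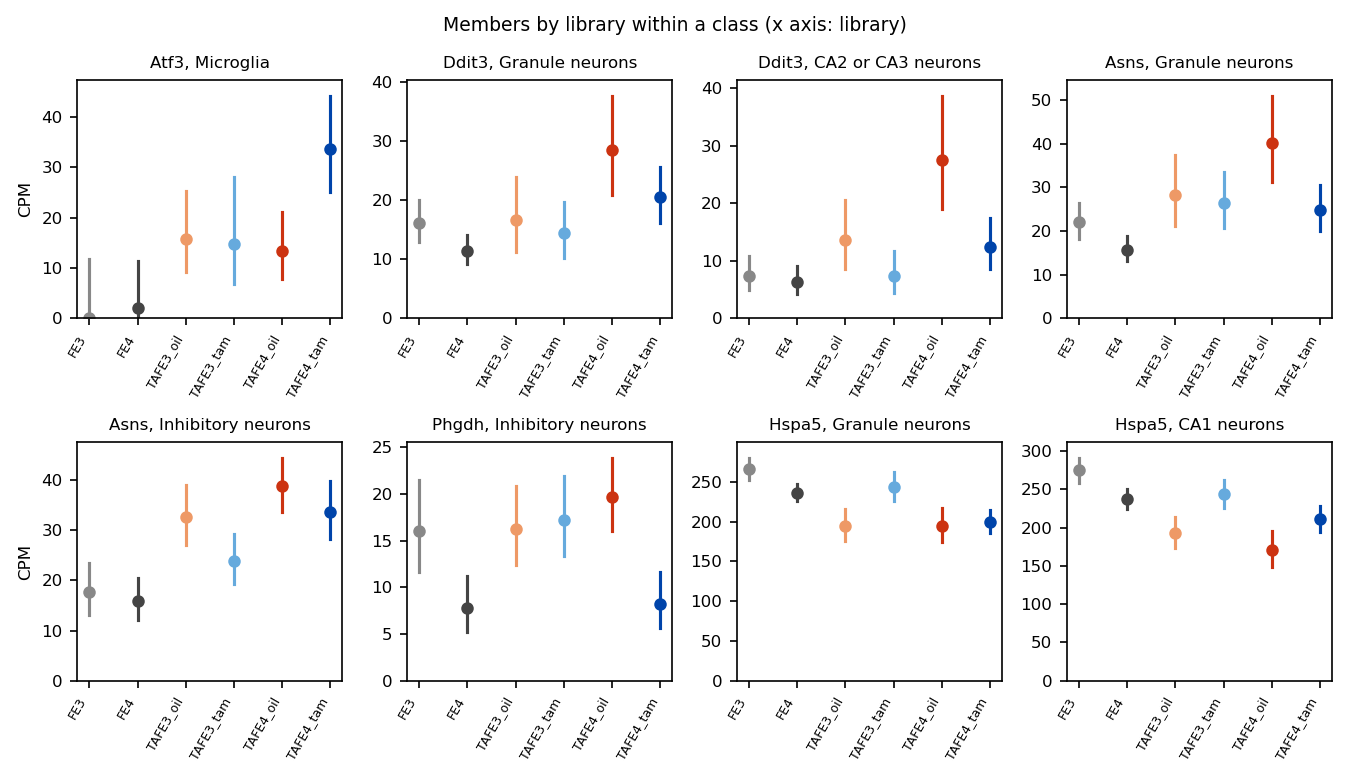
CPM of 5 members in named classes of each library, with 95% counting intervals as bars. Atf3 in microglia and Asns in inhibitory neurons are higher in all 4 TAFE libraries than in both FE libraries, Ddit3 in CA2 or CA3 neurons is highest in TAFE4_oil, and Hspa5 in granule and CA1 neurons is lower in both oil libraries than in FE.

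Tamoxifen against oil asks what deletion of APOE in Cre-expressing cells goes with in mice that carry mutant tau. The oil libraries are shared with the comparison above, so the 2 sets of ratios are not independent. In astrocytes the member medians were 0.06 over 25 members for APOE3 and -0.06 over 26 for APOE4, beside 0.04 and -0.05 over all features. Higher by 1.5-fold were 3 (background 10.2%) and 1 (background 9.88%), and lower 1 (background 9.11%) and 5 of 26 (background 13.9%). In granule neurons the medians were 0.05 and -0.04 over 31 members, beside 0.05 and 0.02 over all features. There 2 (background 7.3%) and 1 (background 5.98%) were higher and 1 (background 5.05%) and 2 (background 7.65%) lower. Microglia gave -0.03 over 30 members and 0.13 over 32, beside 0.02 and 0.02 over all features. Of these members 3 (background 8.57%) and 5 (background 12.1%) were higher and 1 (background 9.67%) and 2 (background 13.4%) lower. In none of these 3 classes did any member have both intervals on the same side of 0. In CA1 neurons, singled out after the values were seen, Hspa5 was lower in both oil libraries than in FE. It was higher there with tamoxifen in both pairs, at 0.33 (0.15 to 0.53) and 0.31 (0.07 to 0.54). In granule neurons, where both oil libraries also lay below FE, Hspa5 was higher with tamoxifen in the APOE3 pair, at 0.32 (0.13 to 0.51). In the APOE4 pair of granule neurons it was at 0.04 (-0.15 to 0.23).

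Phgdh, singled out after its values were seen, was lower with tamoxifen than with oil in the APOE4 pair of several classes. In astrocytes it was at 249.6 CPM in TAFE4_oil and 152 in TAFE4_tam, a log2 ratio of -0.72 (-1.13 to -0.32), against 0.23 (-0.08 to 0.54) in the APOE3 pair. Its log2 ratio in the APOE4 pair was -1.04 (-1.63 to -0.46) in granule neurons, -1.08 in CA1, -2.09 (-3.18 to -1.07) in CA2 or CA3 and -1.25 (-1.87 to -0.68) in inhibitory neurons. In the APOE3 pair the same neurons gave 0.20, 0.15, -0.32 and 0.09, all with intervals across 0. In inhibitory neurons Phgdh was at 15.98 and 7.78 CPM in the FE libraries (APOE3, then APOE4), 16.2 and 17.2 with oil and tamoxifen for TAFE3, and 19.7 and 8.25 likewise for TAFE4. FE4 and TAFE4_tam were low together, and these are the 2 libraries with the low mitochondrial share; the part of that share was not tested. Neuronal levels are far below that in astrocytes, and the part of free RNA from astrocytes was not tested.

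In microglia Atf3 was also higher with tamoxifen in the APOE4 pair, at a log2 ratio of 1.33 (0.54 to 2.20), against -0.10 (-1.45 to 1.15) in the APOE3 pair, and Ddit3 at 0.78 (0.19 to 1.41) against -0.18 (-1.01 to 0.61). Asns went the other way in the APOE4 pair, at -1.05 (-1.72 to -0.41) in microglia, against -0.13 (-1.14 to 0.81) in the APOE3 pair. The difference between the pairs was not tested.

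APOE4 against APOE3 asks whether the allele goes with a difference in the list. Between the FE libraries the member median was -0.22 over 32 members in granule neurons and -0.20 over 30 in astrocytes, beside -0.16 and -0.06 over all features. Higher by 1.5-fold in FE4 were 0 members in granule neurons (background 2.84%) and 1 in astrocytes (background 8.78%), and lower 3 (background 10.9%) and 6 of 30, or 20% (background 9.96%). FE4 has the low mitochondrial share and FE3 the highest, which cannot be told apart from the allele. In TAFE astrocytes the median was 0.13 over 28 members with oil, with 3 members higher (background 11.6%) and 0 lower (background 6.97%). With tamoxifen it was -0.10 over 25, with 2 higher (background 11.2%) and 3 lower (background 11.2%). Over all features the astrocyte medians were 0.09 with oil and 0.01 with tamoxifen, and with no mitochondrial limit the member median with oil turned to -0.0485. No member of granule neurons or astrocytes had both intervals on the same side of 0.

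A further list of 65 genes of the same pathways was read in the same way. In astrocytes 7 of 50 used were at least 1.5-fold higher in the APOE3 pair of TAFE oil against FE and 21 of 54 in the APOE4 pair, with 3 and 5 lower. The higher shares were 14% and 38.9%, against 15.7% and 25.8% of all features. The lower shares were 6% and 9.26%, against 11.7% and 11%. In CA2 or CA3 neurons it was 3 of 54 and 10 of 55 higher, with 5 and 5 lower, and the higher shares of 5.56% and 18.2% lay under those of all features, 6.43% and 22.9%. The lower shares there were 9.26% and 9.09%, against 11.1% and 7.11% of all features. Dnajb9, an ER cochaperone that is a target of XBP1, was higher in astrocytes at log2 ratios of 1.23 (0.59 to 1.91) and 1.23 (0.69 to 1.75). Eprs, a transfer RNA synthetase, was higher there at 1.04 (0.46 to 1.64) and 0.90 (0.43 to 1.36). Gars, another synthetase, was higher in inhibitory neurons at 0.63 (0.20 to 1.08) and 0.93 (0.58 to 1.29). Atf6b, a relative of Atf6, was lower in both pairs in granule, CA1, CA2 or CA3 and inhibitory neurons, in granule neurons at -0.74 (-0.98 to -0.51) and -0.33 (-0.57 to -0.10). In microglia Atf6b stood at -0.81 (-1.43 to -0.17) and -0.99 (-1.52 to -0.44). Cebpb, a partner factor of ATF4, was higher with tamoxifen in microglia at 0.52 (0.04 to 0.99) and 0.67 (0.30 to 1.04).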

How the data were processed

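The deposited files hold raw UMI counts per gene and nucleus, which per the file headers come from Cell Ranger 3.1.0. Seurat and build mm10 are named in the submitters' processing notes. The labels speak of 3′ sequencing with 5′ kits. Barcodes were kept with at least 500 UMIs, 300 genes and at most 5% mitochondrial UMIs, and the nuclei with the highest Scrublet scores, 0.8% for each 1000 nuclei that passed, tied scores included, were left out as doublets in every library, because the caller's own threshold marked 1 nucleus in TAFE3_oil and 14.4% in FE3. Nuclei were clustered in scanpy 1.11.5 on 2000 variable genes without the members (30 components, 15 neighbours, leidenalg 0.10.2, resolution 1, 30 clusters) and named from marker lists. Counts were summed by class and library, with at least 50 nuclei in each for class comparisons, and divided by all UMIs of the sum. Intervals are exact, Poisson for a level and binomial for a ratio (scipy 1.17.1), at 95%, and cover counting error only. Counts under 3 were set to 3 in ratios. Groups have 1 library each, so no p-value was computed. The rule used picked, in each class, the members with the 5 highest and 5 lowest ratios shared by both pairs, and 3 each way from the further list. For levels it picked every member with at least 300 UMIs by its highest class. The text gives values for only some of these, so the members named are not a complete set under the rule. Members shown for other reasons were singled out after their values were seen. The members, lists and comparisons were chosen with earlier results of these data known. Alternatives were TMM scaling (edgeR 4.0.16 in R 4.3.3), sums without mitochondrial and ribosomal protein genes, no mitochondrial limit or 1%, at least 1000 UMIs a nucleus, doublets kept, resolution 0.5, and other minimums of UMIs for a member. The steps were tested on simulated counts.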

Additional observations from a re-analysis of the deposited data

Results flagged for a closer look

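In 4 cases, on 3 members, the intervals of a pair of ratios lay on opposite sides of 0, and in no case was the difference between the ratios tested, since each group has 1 library. Calr, the chaperone calreticulin, had a log2 ratio of TAFE oil to FE of -0.30 (-0.48 to -0.13) with APOE3 and 0.28 (0.08 to 0.47) with APOE4 in CA2 or CA3 neurons, a gap of 0.581. In inhibitory neurons Calr was at -0.34 (-0.45 to -0.23) with APOE3 and 0.13 (0.03 to 0.23) with APOE4, a gap of 0.468. Ddit3, the factor CHOP, had a log2 ratio of APOE4 to APOE3 of -0.51 (-0.96 to -0.06) between the FE libraries and 0.77 (0.08 to 1.48) between the TAFE oil libraries in granule neurons, a gap of 1.27. Pdia6, a disulfide isomerase, was at -0.33 (-0.61 to -0.05) between the FE libraries and 0.49 (0.15 to 0.84) between the TAFE oil libraries in astrocytes, a gap of 0.823. All 4 rest on FE4, whose mitochondrial and ribosomal protein transcripts were the lowest of the 6 libraries in these 4 classes; their part was not tested.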

How the results depend on the processing

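No paired analysis was possible because each group has 1 library. Of the values of medians and counts under the alternatives, 219 stayed close to the main value and 13 moved. With TMM scaling, which shifted all TAFE4_oil against FE4 ratios by -0.22 in astrocytes and by -0.22 to -0.25 in granule, CA1, CA2 or CA3 and inhibitory neurons, the member median of TAFE4_oil against FE4 was 0.00724 in granule, 0.233 in CA2 or CA3 and 0.0886 in inhibitory neurons and 0.34 in astrocytes; that of FE4 against FE3 in granule neurons was -0.0555, and 7 members of astrocytes stood above in all 4 TAFE libraries. With no mitochondrial limit the astrocyte median was 0.27 for TAFE4_oil against FE4 and -0.0485 for TAFE4_oil against TAFE3_oil. With at most 1% mitochondrial UMIs the granule median was 0.0563 for TAFE3_oil against FE3 and -0.084 for FE4 against FE3, and Eif2s1 in inhibitory neurons reversed to -0.241 for TAFE3_oil against FE3. With doublets kept the microglial median was 0.295 for TAFE4_oil against FE4 and 0.0132 for TAFE4_tam against TAFE4_oil. At resolution 0.5 the oligodendrocyte median was 0.278 for TAFE3_oil against FE3. For these the cause was not tested. Over all alternatives the number of members above in every TAFE library ran from 12 to 19 in all nuclei, 7 to 17 in astrocytes and 7 to 12 in oligodendrocytes. In the main count the shares of all features were 32.5%, 18.7% and 14.3%. Some alternatives left out FE4, TAFE4_tam or both, a looser rule that cannot lower the count of any genes. The ranges are therefore of members only and do not set them against other features. Of the ratios of single members, 1243 stayed close, 52 moved and 1 reversed. Members under 20 UMIs over a pair could not be compared at this depth.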

Other observations

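Some small clusters outside the compared classes held the highest levels of list members. A cluster of 53 nuclei, 44 of them in TAFE4_tam, was led by Cyp3a25, Pck1, Abcc2, Mug1, Cps1 and Ahsg and stays unnamed. Of all 30 clusters it was the highest for 10 members, among them Herpud1 at 358 CPM, Xbp1 at 249 CPM, Sel1l at 231 CPM, Syvn1 at 145 CPM, Shmt2 at 118 CPM and Edem1 at 81.5 CPM. A further unnamed cluster of 180 nuclei, led by Mrc1, Stab1 and Cd163, was the highest for 5 members, with Hspa5 at 613 CPM, Pdia6 at 339 CPM, Pdia3 at 219 CPM and Sdf2l1 at 77.1 CPM. T cells, 91 nuclei, had the highest levels of Calr at 712 CPM, Hsp90b1 at 417 CPM and Asns at 49.1 CPM. These are levels of pooled libraries in clusters built from the same nuclei, with no test. How many of all features were highest in each of these small clusters was not counted, so the member counts have no background.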
